A study of Sus scrofa with 4 samples.

Results

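Skeletal muscle sarcomere genes were compared between KO thymus, from pigs with an edited IL2RG gene, and WT thymus, and each of their array probes is described here, because probes of the same gene did not always give the same answer. The 9 genes are MYL1, MYLPF, MYH1, MYH2, ACTA1, TNNT3, TNNI2, ACTN2 and CKM, out of 3020 pig genes that could be named on the array. Their members were all probes whose RefSeq accession in the scanner output belongs to 1 of these genes, which gave 73 of the 43603 probes. All probes of a gene carry the same accession, so that the array design does not assign them to different transcripts. The KO pigs are labelled IL2RG+/-, and the methods describe them as monoallelic knockouts made with TALENs in cultured cells and then cloned by nuclear transfer. The WT pigs are labelled wildtype, and both groups are Minnesota miniature swine. Each group has 2 arrays, with 1 thymus sample on each array. Most KO pigs of the study had no thymus at necropsy, and the thymus of those used for the arrays was rudimentary, so that the KO samples come from selected animals. The age of these animals is not given in the labels.

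A sarcomere is the contractile unit of striated muscle. Thick filaments of myosin heavy and light chains pull on thin filaments of actin, the troponin complex on the thin filament makes this depend on calcium, alpha-actinin anchors the thin filaments in the Z disc, and muscle creatine kinase restores the ATP that is used. The thymus is known to hold a few muscle-like (myoid) cells in its medulla, and it lies close to striated muscle in the neck and chest. The arrays measure RNA of whole tissue, and fewer cells of a type cannot be told apart from less RNA per cell.

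Each array holds 1 short DNA probe per spot, and the brightness of the spot follows the amount of the matching RNA. The values below are log2 of the background-subtracted signal minus the 75th percentile of the same array, here called the normalized log2 signal, so that 0 is the 75th percentile of that array. Brightness also depends on the probe itself, and levels are therefore compared between arrays and not between probes. Of the 73 probes, 68 exceeded background clearly, by the scanner's own flag, in both KO or both WT arrays, and these were tested with limma. The flag is what "well above background" refers to here. A probe was called at a Benjamini-Hochberg adjusted p under 0.05 over all 31963 tested probes together with a change of at least 2-fold. Log2 fold changes are KO minus WT, and SE is their standard error.

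IL2RG, the gene that was targeted, had normalized log2 signals of -3.15 and -3.29 in the KO arrays and of -0.13 and 0.52 in the WT arrays at its brightest probe, a log2 fold change of -3.41 (SE 0.27, adjusted p = 0.00256 in limma). The thymocyte genes that define the organ were bright in both WT arrays, with RAG1, part of the recombinase that assembles T cell receptor genes, at 3.85 and 4.07, against -2.93 and -4.50 in KO. Slide 1 held KO replicate 1 with WT replicate 2, and slide 2 held the other pair. Each slide thus compares 1 KO with 1 WT array, out of the same 4 arrays as the fit. On the 4 arrays 67.9% to 74.6% of probes carried that flag, and no spot was saturated. Precision is limited by having 2 arrays in each genotype, and the smallest exact two-sided permutation p of a single probe is 0.333.

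The muscle genes did not move as a group. All tested probes of MYL1, MYLPF and TNNT3 were lower in KO, 7 of 16 ACTA1 probes and 1 of 3 MYH2 probes were lower, none of the MYH1, TNNI2 and ACTN2 probes was called, and 7 of 10 CKM probes were higher. In all, 29 of the 68 tested probes were called lower, where 13.0% of all tested probes were, and 7 were called higher, where 21.0% were. Another 32 were tested and not called, and 5 were too dim to test. Most of the 29 lower probes passed the background filter through the WT arrays alone, where they are high. Most of these are MYL1 probes, and MYL1 holds 15 of the 29. Among probes well above background on all 4 arrays, 12 of 45 were called lower and 7 higher. Of all 27971 probes that passed this filter, 3762 were called lower and 4760 higher. When every gene was represented by its brightest probe alone, 4 of the 9 genes were called lower, where 12.6% of all named genes were, and 0 were called higher, where 25.2% were. Under that choice MYL1, MYLPF, TNNT3 and MYH2 were the genes called, and the ACTA1 and CKM calls disappeared, since the brightest ACTA1 and CKM probes were not among the called ones. The median log2 fold change was -2.13 over the 68 probes (-1.91 with dim probes set to their bound, explained below), against -0.06 over all tested probes. This median depended on how dim spots were filtered. Over the 45 probes that passed on each of the 4 arrays it was -0.37, against -0.14 over the 27971 probes selected in that way. With no such filter it was -0.94 over 73 probes, against -0.13 over all probes. In the log2 values deposited by the authors it was -0.28 over 45 probes, against -0.14. Under another background correction (normexp) the median over the 68 probes was -0.91, against -0.10 over all tested probes.

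**Figure D1:**
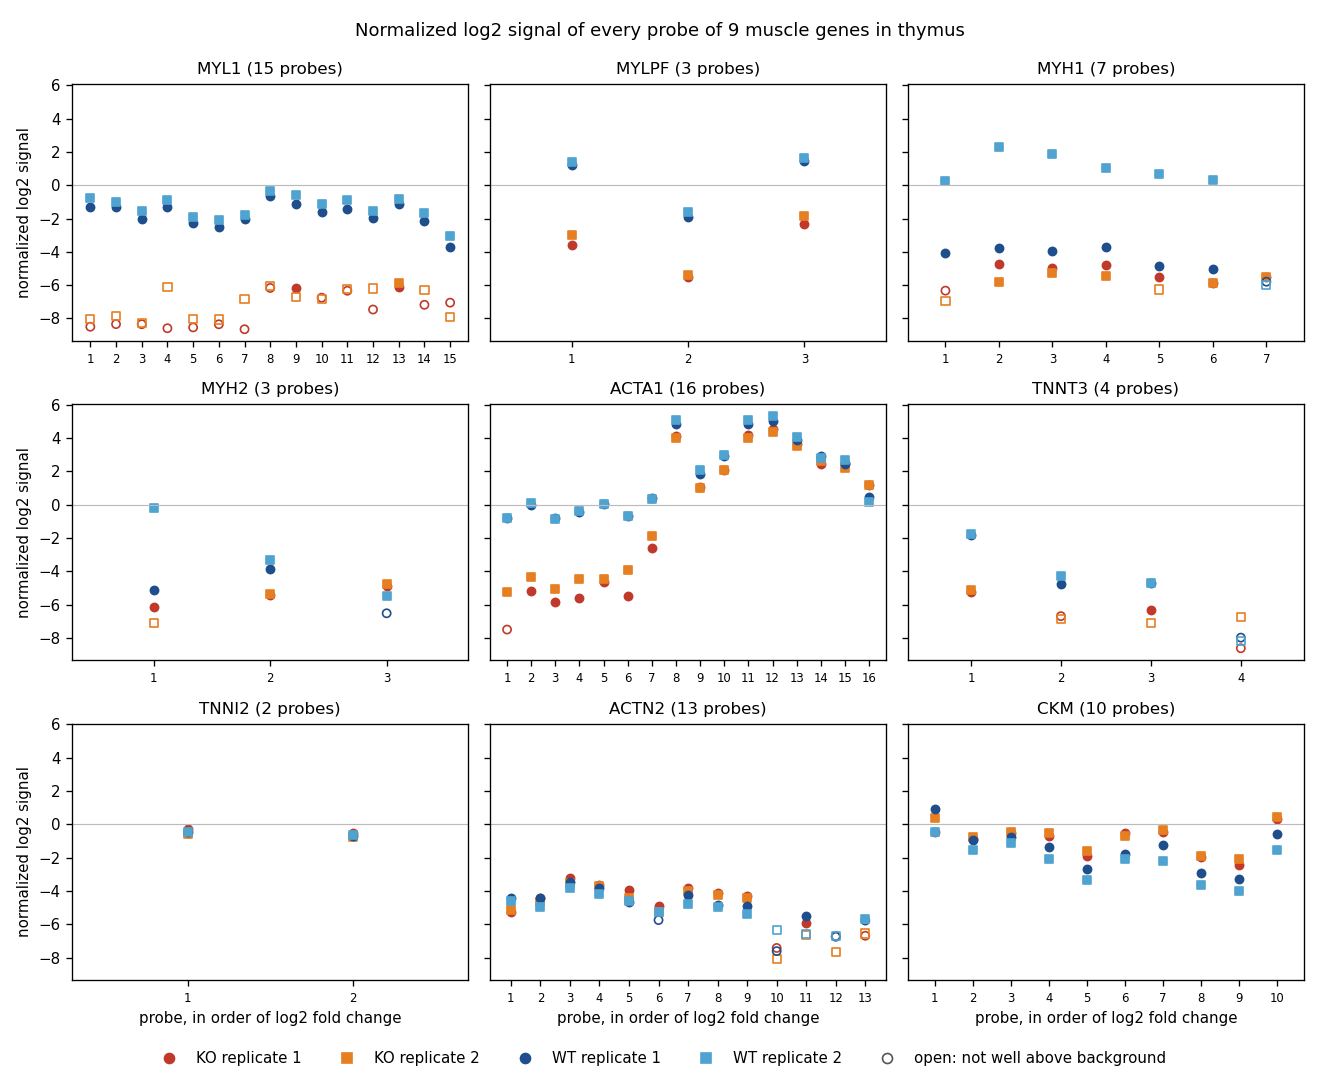
Normalized log2 signal (vertical axis) of every probe of the 9 genes on each of the 4 arrays, with the probes of a gene in order of their log2 fold change and untested probes last. Open marks are spots not well above background. KO marks lie under WT marks at every MYL1 and MYLPF probe, ACTA1 holds 7 probes with wide gaps and 9 with narrow ones, and WT replicate 2 stands alone at 6 of the 7 MYH1 probes.

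MYL1 encodes the alkali (essential) light chain of fast skeletal muscle myosin. Its brightest probe, A_72_P223632, had normalized log2 signals of -6.17 and -6.06 in the KO arrays and of -0.64 and -0.32 in the WT arrays. The KO values were -6.11 ± 0.08 and the WT values -0.48 ± 0.22 (mean ± SD, n = 2 arrays each). The groups lie far apart, with a log2 fold change of -5.63 (SE 0.19, adjusted p = 0.00205 in limma). Both KO spots of this probe were too dim to count as well above background, and its change is therefore a bound, at least 49.6-fold lower in KO. The bound sets each KO array to the lowest normalized signal among its probes that were well above background, or to the probe's own signal where that was higher. It holds for the scanner's background subtraction. Under the normexp correction, the log2 fold changes of the MYL1 probes lay between -2.81 and -1.15 and their median was -2.26, with all 15 still called.

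All 15 MYL1 probes were called lower in KO, and the KO arrays were under the WT arrays at each of them. The largest fitted change was at A_72_P755940, with -8.50 and -8.02 in KO against -1.30 and -0.74 in WT, for a log2 fold change of -7.24. The smallest was at A_72_P759212, with -7.05 and -7.90 in KO against -3.74 and -3.07 in WT, for a log2 fold change of -4.07. Of the 15 probes, 13 were too dim on both KO arrays to be well above background, so that their fitted values run below the range the arrays resolve, and their bounds lie between at least 7.05-fold and at least 49.6-fold lower. The exceptions were A_72_P719328, well above background on all 4 arrays, with -6.10 and -5.89 in KO, -1.15 and -0.83 in WT and a log2 fold change of -5.002, and A_72_P718383, well above background on 1 KO array, with a log2 fold change of -5.60. The other probes had fitted log2 fold changes of -6.94 (A_72_P719973), -6.51 (A_72_P730188), -6.26 (A_72_P725748), -6.21 (A_72_P726598), -5.89 (A_72_P755981), -5.84 (A_72_P730078), -5.42 (A_72_P727353), -5.10 (A_72_P764822), -5.05 (A_72_P723608) and -4.83 (A_72_P721153). The median over the 15 probes was -5.63, and -4.85 with dim probes at their bound. Differences in size between the 13 dim probes are not resolved by these signals. The largest SE was 0.85 at A_72_P725748, where KO replicate 1 read -8.59 and KO replicate 2 read -6.13, both not well above background. WT replicate 2 exceeded WT replicate 1 at all 15 probes, by 0.26 to 0.67 on the log2 scale, which is small beside the difference between genotypes.

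MYLPF encodes the fast skeletal muscle regulatory light chain. All 3 of its probes were called lower in KO and were well above background on all 4 arrays, so that here the falls are measured and not bounds. A_72_P664582 read -3.57 and -2.97 in KO against 1.19 and 1.40 in WT, for a log2 fold change of -4.56 (SE 0.26, adjusted p = 0.00206 in limma). A_72_P616544 read -2.31 and -1.86 in KO against 1.46 and 1.62 in WT, for a log2 fold change of -3.62 (SE 0.22). A_72_P035721 read -5.51 and -5.39 in KO against -1.91 and -1.63 in WT, for a log2 fold change of -3.68 (SE 0.18). The 3 probes gave falls within 1 log2 unit of each other, and the replicates of a genotype differed by at most 0.603 at each of them. Under the normexp correction all 3 were called, with log2 fold changes from -3.75 to -1.87.

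MYH1 encodes the myosin heavy chain of fast type 2X fibres, and at most of its probes the WT replicates differed more from each other than the genotypes did. At 6 of the 7 MYH1 probes, WT replicate 2 stood 20.2- to 68.2-fold above WT replicate 1, while WT replicate 1 lay near the KO arrays. A_72_P619550 read -4.70 and -5.83 in KO, -3.77 in WT replicate 1 and 2.32 in WT replicate 2, with a log2 fold change of -4.54 (SE 2.09, adjusted p = 0.141 in limma). A_72_P608642 read -4.97 and -5.25 in KO, -3.97 in WT replicate 1 and 1.86 in WT replicate 2, with a log2 fold change of -4.06 (SE 1.97). The remaining probes of this kind had log2 fold changes of -4.73 (A_72_P590054), -3.81 (A_72_P271099), -3.80 (A_72_P635603) and -3.52 (A_72_P599694). A_72_P590054 was not well above background on either KO array, so that its change is a bound, at least 19.5-fold lower. None of the 6 was called, with adjusted p values between 0.0582 and 0.176, and yet neither WT array was below a KO array at any of them. Over these 6 probes the KO arrays ranged from -6.96 to -4.70, WT replicate 1 from -5.03 to -3.72 and WT replicate 2 from 0.25 to 2.32. The size of the difference is set by WT replicate 2. Without it the log2 fold changes of the 6 probes were between -2.56 and -0.84, with 3 of them called, and without WT replicate 1 they were between -7.59 and -6.19, with all 6 called. These fits with 1 WT array assume that the lone array varies as the KO arrays do. Within slide 1, which holds WT replicate 2, KO was lower with differences of -7.02 to -5.87 on the log2 scale, and within slide 2 with differences of -2.87 to -0.85. With the slide as a block, MYH1 A_72_P590054 was called lower (adjusted p = 0.0368 in limma) and the other 6 probes were not. It was also called when arrays were scaled to the median or quantile normalized.

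The seventh MYH1 probe, A_72_P442365, did not follow the others. It read -5.50 and -5.51 in KO against -5.79 and -5.98 in WT, where it was not well above background, and WT replicate 2 was not raised at it. Its fitted log2 fold change was 0.38 (SE 0.16, adjusted p = 0.118 in limma), at least 1.24-fold higher in KO as a bound, and it changed sign under another background correction.

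MYH2 encodes the type 2A myosin heavy chain, and its 3 probes gave 3 different answers. A_72_P600848 behaved as the MYH1 probes did, with -6.15 and -7.08 in KO, -5.10 in WT replicate 1 and -0.20 in WT replicate 2, and a log2 fold change of -3.97 that was not called (SE 1.69, adjusted p = 0.119 in limma). A_72_P694038, the brightest of them, read -5.42 and -5.33 in KO against -3.84 and -3.29 in WT and was called lower, with a log2 fold change of -1.82 (SE 0.24, adjusted p = 0.00676 in limma). A_72_P440201 went the other way, with -4.87 and -4.78 in KO against -6.51 and -5.47 in WT, for a log2 fold change of 1.17 that was not called (SE 0.38, adjusted p = 0.0644 in limma). Without WT replicate 2, A_72_P440201 passed the threshold at 1.69, and A_72_P600848 was at -1.52 and was not called. Under another background correction (normexp) the call at A_72_P694038 was lost, at -0.80.

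In the RefSeq gene order MYH1 has no other gene between it and MYH2 on one side and MYH4 on the other. MYH4, the type 2B heavy chain and no member of the 9 genes, had 3 tested probes. They read between -6.35 and -4.46 in KO, between -4.66 and -3.68 in WT replicate 1 and between -1.30 and 1.41 in WT replicate 2, so that WT replicate 2 was again alone. None of the 3 was called, with log2 fold changes of -3.54, -3.20 and -2.59. MYF6, a myogenic transcription factor, read -1.69 and -2.11 in KO, -0.37 in WT replicate 1 and 3.52 in WT replicate 2 at its only probe, with a log2 fold change of -3.48 (SE 1.33, adjusted p = 0.0926 in limma). Over all tested probes, 33 of 31963, or 0.103%, were at least 8-fold higher in WT replicate 2 than in WT replicate 1. Of the 33, 14 could be named, and they belong to MYH1, MYH2, MYH4, MYF6, AQP4, EPHX2 and ESD. Of these 14, 7 are MYH1 and MYH2 probes. What set WT replicate 2 apart at these genes was not tested.

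**Figure D2:**
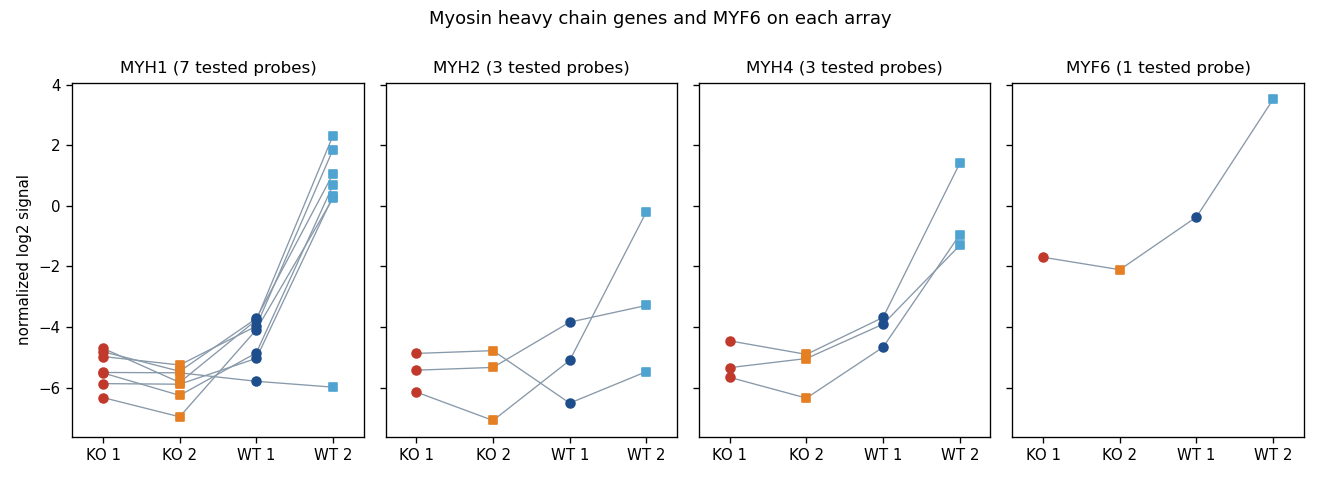
Normalized log2 signal of the tested probes of the heavy chain genes MYH1, MYH2 and MYH4 and of MYF6 on each array, with a line for each probe. WT replicate 2 is the highest array at 6 of 7 MYH1 probes, at A_72_P600848 and A_72_P694038 of MYH2, at all 3 MYH4 probes and at the MYF6 probe.

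ACTA1 encodes skeletal muscle alpha-actin, the actin of the thin filament, and its 16 probes are divided here into 2 sets by their call. At 7 probes log2 fold changes lay between -5.58 and -2.63, and all 7 were called. At the other 9, log2 fold changes lay between -0.94 and 0.87 and none was called. The smallest called fall, -2.63 at A_72_P733933, stood apart from both sides, with the next called probe, A_72_P720293, at -4.03. The probe A_72_P764598 of the first set read -4.65 and -4.46 in KO against 0.03 and 0.06 in WT, for a log2 fold change of -4.60 (SE 0.16, adjusted p = 0.00205 in limma). Its KO arrays were far under both WT arrays, which nearly coincided. The probe A_72_P733238 of the second set, the brightest ACTA1 probe, read 4.55 and 4.38 in KO against 5.004 and 5.352 in WT, for a log2 fold change of -0.72 (SE 0.20) that stayed short of 2-fold although its adjusted p in limma was 0.0419.

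The first set also holds A_72_P736997 with a log2 fold change of -5.58, A_72_P755249 with -4.84, A_72_P719238 with -4.62, A_72_P248052 with -4.62, A_72_P720293 with -4.03 and A_72_P733933 with -2.63. Under the normexp correction ACTA1 A_72_P755249 had the largest fall at -3.22 and ACTA1 A_72_P733933 the smallest of the set at -2.18, with all 7 called. In these 7 probes WT replicates lay within 1.102-fold of each other, whereas KO replicate 2 was above KO replicate 1 at all 7. The widest gap was at A_72_P736997, with -7.49 and -5.23 in KO, and here KO replicate 1 was not well above background. Their unscaled signals were 4 to 187 in KO and 352 to 879 in WT. The second set holds A_72_P723131 with -0.94, A_72_P790124 with -0.92, A_72_P762162 with -0.90, A_72_P712823 with -0.84, A_72_P728918 with -0.37, A_72_P763429 with -0.35, A_72_P790187 with -0.18 and A_72_P727093 with 0.87. Of these 9 probes, 8 were negative, and 6 had an adjusted p under 0.05 while staying under 2-fold, among them A_72_P727093, the only ACTA1 probe that was higher in KO, with 1.17 and 1.19 against 0.44 and 0.17. Their unscaled signals were 1415 to 17798 in KO and 782 to 28368 in WT. With arrays scaled to the median, which lowered every log2 fold change by the same amount, 11 of the 16 ACTA1 probes were called lower, and without WT replicate 1 there were 9 lower and 1 higher.

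The split within ACTA1 could be set against other actin genes, which share long stretches of nearly identical coding sequence. ACTC1, the cardiac alpha-actin, read 4.55 and 4.38 in KO against 5.06 and 5.17 in WT at its brightest probe, a log2 fold change of -0.65 (SE 0.16) that was not called, whereas its other 2 probes were called lower, with -3.77 and -1.32. ACTA2, the smooth muscle alpha-actin, had log2 fold changes of -0.53, -0.52 and -0.14 at 3 probes that were not called and of 1.85 at 1 that was called higher. Which actin RNA each probe binds was not tested, and the probe sequences were not used here.

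TNNT3 encodes fast skeletal muscle troponin T, the subunit that ties the troponin complex to tropomyosin. All 3 tested probes were called lower in KO. A_72_P015556 read -5.23 and -5.10 in KO against -1.83 and -1.74 in WT, for a log2 fold change of -3.38 (SE 0.16, adjusted p = 0.00205 in limma). A_72_P535015 read -6.68 and -6.84 in KO, not well above background, against -4.73 and -4.25 in WT, so that its change is at least 3.32-fold lower. A_72_P574589 read -6.31 and -7.07 in KO against -4.69 and -4.70 in WT, for a log2 fold change of -1.998 (SE 0.30). Its signal in KO replicate 2 was not well above background. The last 2 calls were lost under the normexp background correction, at -0.58 and -0.56. One more probe, A_72_P538200, was not well above background on any array and was not tested.

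TNNI2 encodes fast skeletal muscle troponin I, the inhibitory subunit of the same complex, and it did not fall with TNNT3, although RefSeq places only 2 genes between them. A_72_P303159 read -0.29 and -0.59 in KO against -0.45 and -0.44 in WT, for a log2 fold change of 0.01 (SE 0.18, adjusted p = 0.981 in limma). A_72_P585911 read -0.51 and -0.75 in KO against -0.72 and -0.63 in WT, for a log2 fold change of 0.04 (SE 0.17). At both probes the KO replicates lay around the WT replicates, and both values turned negative when arrays were scaled to their medians.

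ACTN2 encodes the alpha-actinin of the Z disc in striated muscle. None of its 9 tested probes was called, and 8 of them had positive values. The brightest, A_72_P561764, read -3.22 and -3.49 in KO against -3.46 and -3.81 in WT, for a log2 fold change of 0.28 (SE 0.21, adjusted p = 0.334 in limma), and the groups overlapped. The highest value was at A_72_P176436, with -4.32 and -4.41 in KO against -4.91 and -5.40 in WT, for a log2 fold change of 0.79 (SE 0.22, adjusted p = 0.0454 in limma), where the groups did not overlap and the change stayed under 2-fold. The one negative value was at A_72_P488989, with -5.23 and -5.16 in KO against -4.39 and -4.63 in WT, for a log2 fold change of -0.69 (SE 0.17, adjusted p = 0.0319 in limma). The other tested probes had log2 fold changes of 0.18 (A_72_P496366), 0.31 (A_72_P584646), 0.44 (A_72_P569089), 0.44 (A_72_P601268), 0.60 (A_72_P595764) and 0.70 (A_72_P594269). Under quantile normalization ACTN2 A_72_P488989 was called lower, at -1.03, and without WT replicate 1 ACTN2 A_72_P176436 was called higher, at 1.03. A_72_P496366 changed sign when arrays were scaled to their medians, and A_72_P496366, A_72_P561764 and A_72_P584646 did so under quantile normalization. The 4 probes that were not tested were A_72_P313043, A_72_P560489, A_72_P576449 and A_72_P594015, none of which was well above background on both arrays of a genotype.

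CKM encodes the muscle form of creatine kinase, and it was the only gene of the 9 with probes called higher in KO. Its 10 probes were well above background on all 4 arrays. A_72_P227527 read 0.31 and 0.45 in KO against -0.61 and -1.51 in WT, for a log2 fold change of 1.43 (SE 0.34, adjusted p = 0.0288 in limma). A_72_P603616 read -0.54 and -0.72 in KO against -1.80 and -2.11 in WT, for a log2 fold change of 1.32 (SE 0.19, adjusted p = 0.00838 in limma). The other called probes had log2 fold changes of 1.35 (A_72_P530167), 1.34 (A_72_P620564), 1.33 (A_72_P597713), 1.26 (A_72_P650270) and 1.099 (A_72_P581502). At each of the 7, WT replicate 1 lay between WT replicate 2 and the KO arrays.

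The 3 CKM probes that were not called had log2 fold changes of 0.45 (A_72_P567564), 0.44 (A_72_P590234) and -0.26 (A_72_P602644). A_72_P602644, the brightest of the 10, had crossed replicates, with -0.49 and 0.39 in KO against 0.90 and -0.47 in WT, and an SE of 0.57. The CKM calls changed with the arrays used. They went from 7 to 0 without KO replicate 1, to 0 without KO replicate 2 and to 1 without WT replicate 2, and there were 7 without WT replicate 1. The median log2 fold change over the 10 probes, 1.29 with all arrays, was 1.30, 1.14, 0.89 and 1.54 in these fits. Under the normexp background correction 3 of the 7 remained called.

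**Figure D3:**
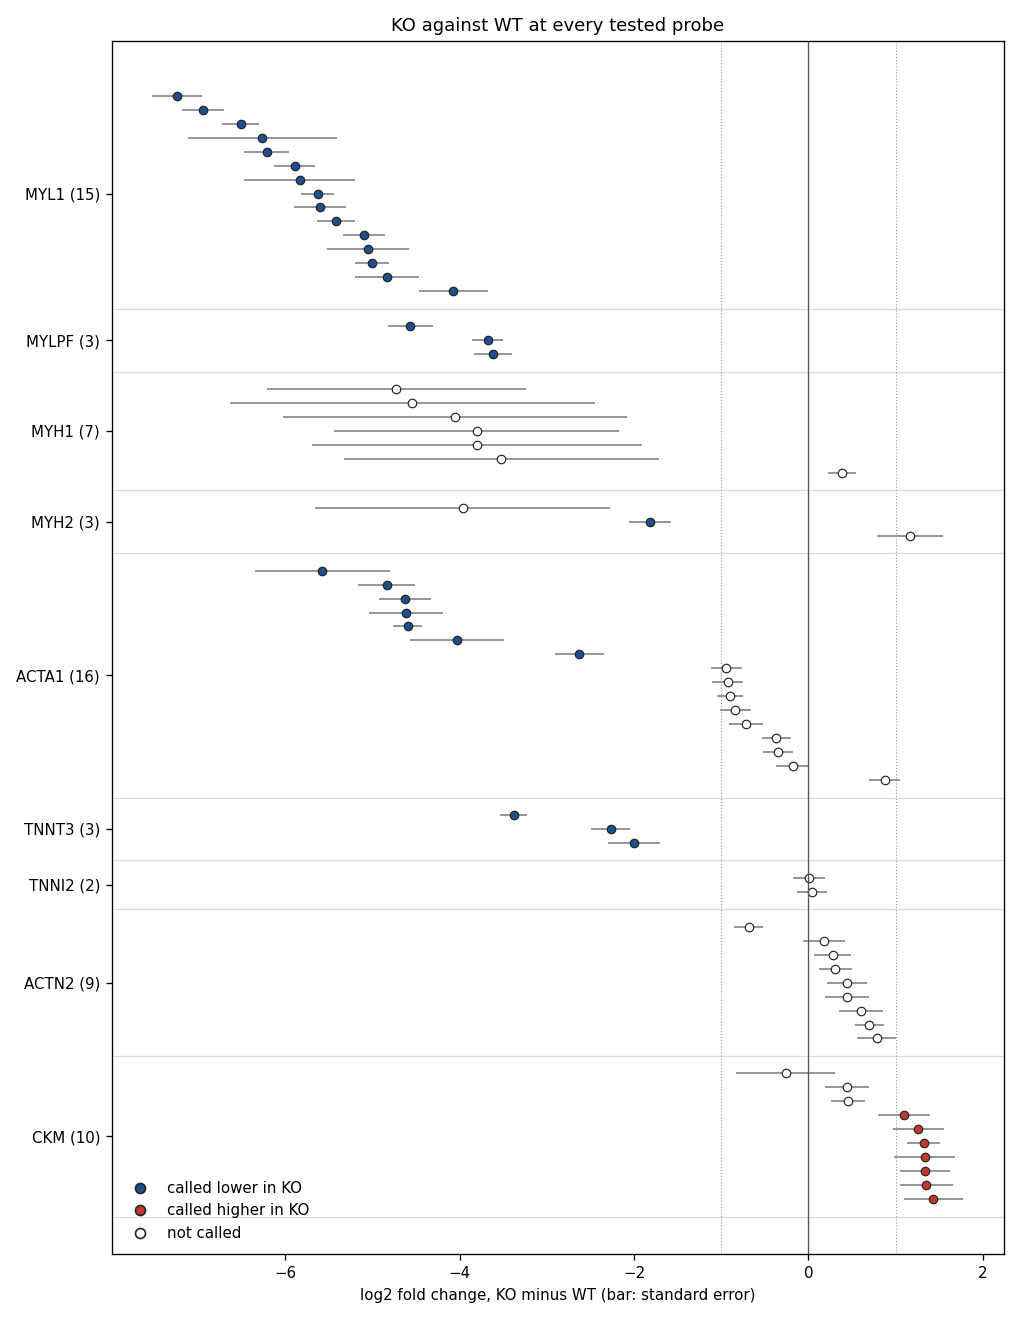
Log2 fold change of KO against WT at each of the 68 tested probes (horizontal axis), grouped by gene, with bars for the standard error and dotted lines at 2-fold. Blue marks were called lower in KO, red marks higher, and open marks were not called. MYL1 probes run from -7.24 to -4.07, the long MYH1 bars come from WT replicate 2, and ACTA1 has an empty stretch between -2.63 and -0.94.

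Whether probes of the same gene differed from each other was tested on the difference between each probe and the brightest probe of its gene within an array. Of the 59 such comparisons among the 9 genes, 41 reached the smallest exact permutation p of 0.333, that is, both KO differences lay on the same side of both WT differences, and 48.0% of such comparisons over all named genes did so. With limma on the same differences, a choice made after the values were seen, 5 of the 59 differed by at least 2-fold at an adjusted p under 0.05, where 1.66% did over all named genes. These were 3 ACTA1 probes, A_72_P764598 with a difference of -3.88 from A_72_P733238 (SE 0.19, adjusted p = 0.0262), A_72_P755249 with -4.12 and A_72_P719238 with -3.91, the MYH2 probe A_72_P440201 with 2.98 from A_72_P694038 (SE 0.19, adjusted p = 0.0276), and the MYL1 probe A_72_P755940 with -1.61 from A_72_P223632. Both of these MYL1 probes were dim in KO, so that their difference rests on signals under the background limit. No difference was called among probes of MYLPF, MYH1, TNNT3, TNNI2, ACTN2 and CKM, and with the slide as a block none of the 5 was called.

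Each slide compared 1 KO with 1 WT array. The 29 probes called lower in KO were lower on both slides and in every fit that left out 1 array. These probes, and the CKM probes below, were called on the same 4 arrays. Their direction within slides therefore largely follows from the call and is a description, not separate support. MYL1 differences on the log2 scale were -7.75 to -3.98 on slide 1 and -6.73 to -4.16 on slide 2. Those of the called ACTA1 probes were -6.70 to -2.94 on slide 1 and -4.48 to -2.32 on slide 2. The 7 CKM probes called higher rose by 1.38 to 1.82 on slide 1 and by 0.82 to 1.17 on slide 2.

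**Figure D4:**
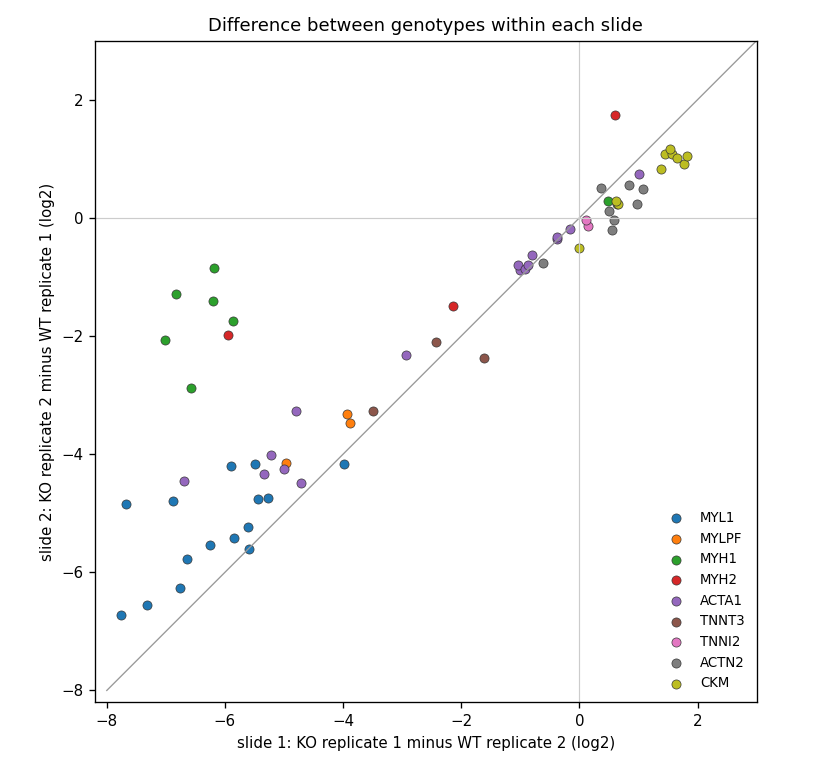
Difference between KO and WT (log2) at each tested probe within slide 1 (horizontal axis) and within slide 2 (vertical axis), coloured by gene, with the line of equal differences. MYH1 probes lie far from the line, at -7.02 to -5.87 on slide 1 and -2.87 to -0.85 on slide 2, apart from A_72_P442365, which lies at 0.48 on slide 1 and 0.28 on slide 2.

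Other genes of striated muscle were taken from 6 lists of 96 genes, of which 44 had a tested probe. Each gene is given by its brightest probe. Of the 44, 8 were called lower, 13 were called higher and 23 were not called, with a median log2 fold change of 0.13, against 12.6% lower, 25.2% higher and a median near 0 (-0.002) over all named genes.

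Among other thick filament genes, 1 of 3 tested was lower. It was MYL2, the regulatory light chain of slow and heart muscle, with a log2 fold change of -1.61 (SE 0.38, adjusted p = 0.0289 in limma) and -2.42 and -2.80 in KO against -1.49 and -0.51 in WT. MYH7, the slow heavy chain, was at 0.33 and was not called. MYH4, the last of them, is described above.

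On the thin filament, 3 of 10 were lower and none higher. They were the slow muscle troponins, TNNC1 with a log2 fold change of -3.47 (SE 0.22), TNNI1 with -3.43 (SE 0.27) and TNNT1 with -3.11 (SE 0.17), each with an adjusted p of at most 0.00252 in limma. TNNT1 read -2.78 and -2.69 in KO against 0.50 and 0.25 in WT, and all 4 of its probes were called lower. TNNI1, the slow counterpart of TNNI2, read -5.25 and -5.55 in KO against -2.26 and -1.67 in WT. The brightest ACTC1 probe was not called, as given above. Over all probes of this list, 19 of 51 were lower and 4 were higher, where 13.0% and 21.0% of all tested probes were.

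In the Z disc list, 2 of 10 were lower and 3 were higher. MYOZ2, a calcineurin-binding protein of the Z disc in slow and heart muscle, was at least 6.33-fold lower, not well above background in KO, with -8.23 and -6.76 against -3.89 and -3.23 in WT. ANKRD1, a stress-responsive muscle ankyrin repeat protein, fell by 2.62 on the log2 scale (SE 0.47, adjusted p = 0.0138 in limma). PDLIM3, a partner of alpha-actinin, rose by 4.46 (SE 0.32, adjusted p = 0.00228 in limma), and MYOZ3, a relative of MYOZ2, by 3.28 (SE 0.32).

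Among genes of muscle energy and oxygen supply, 2 of 8 were lower and 3 higher. PGAM2, the muscle phosphoglycerate mutase, read -2.82 and -3.31 in KO against 0.42 and 0.37 in WT, for a log2 fold change of -3.46 (SE 0.22, adjusted p = 0.0021 in limma). CKMT2, the mitochondrial creatine kinase of striated muscle, read -3.28 and -3.34 in KO against -5.95 and -6.35 in WT, not well above background there, and was at least 5.68-fold higher. All 7 of its probes were called higher. FABP3 rose by 2.36 (SE 0.52) and PPARGC1A by 2.21 (SE 0.33) on the log2 scale. FABP3 binds fatty acids, and PPARGC1A is a coactivator of mitochondrial genes.

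Genes of excitation and calcium handling included none that was lower, and 4 of 6 were higher. PLN, an inhibitor of the calcium pump of the sarcoplasmic reticulum, rose by 3.01 on the log2 scale (SE 0.62, adjusted p = 0.0197 in limma), and SLN, a related inhibitor, by 1.29 (SE 0.20). RYR1, the calcium release channel, rose by 1.13 (SE 0.23), and CASQ1, a calcium buffer, was at least 1.45-fold higher. CASQ1 was not well above background in WT, and its call rests on the fitted value, since its bound is under 2-fold. The median of this list was 1.21, and 0.83 with CASQ1 at its bound.

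Of the myogenic regulators and neuromuscular receptor genes, 3 of 7 were higher and none was lower. MSTN, an inhibitor of muscle growth, rose by 3.13 on the log2 scale (SE 0.36), and IGF2, a growth factor, by 2.28 (SE 0.26). The subunits of the muscle acetylcholine receptor had no named probe on the array.

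**Figure D5:**
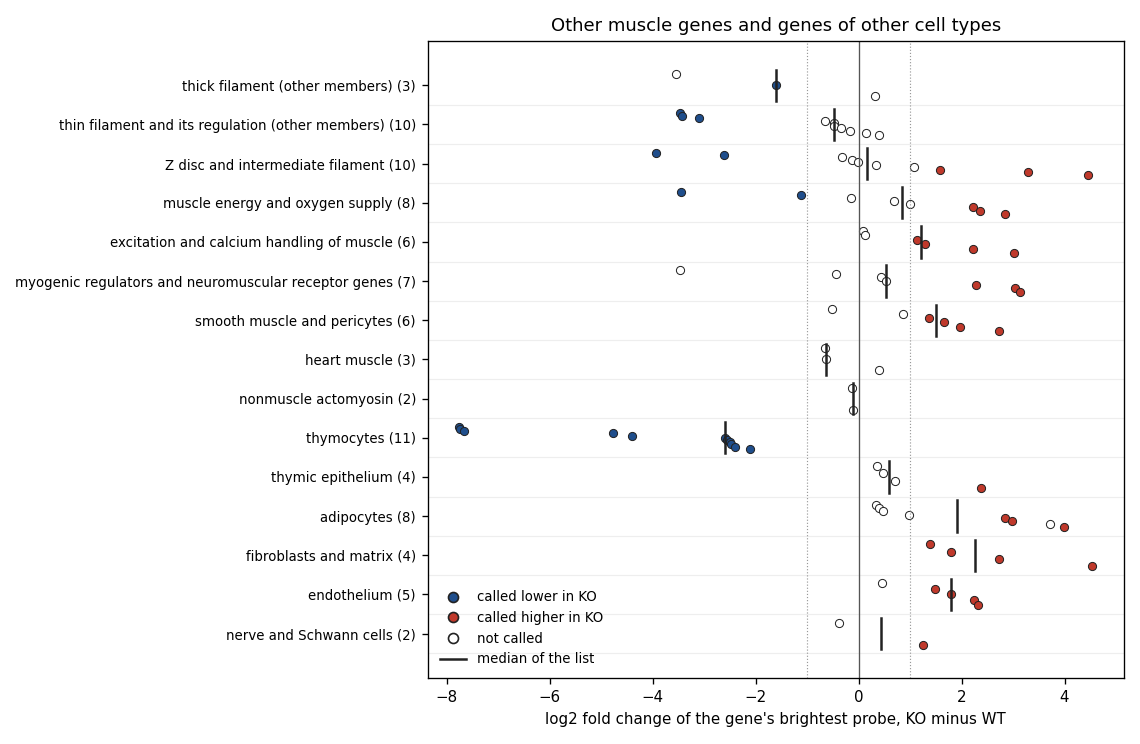
Log2 fold change (horizontal axis) of the brightest probe of each gene in 6 lists of other muscle genes and 9 lists of genes of other tissues and cell types, with the number tested in parentheses, the median as a bar and dotted lines at 2-fold. Blue marks were called lower in KO, red marks higher and open marks were not called. All 11 thymocyte genes lie at or below -2.12.

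Genes of other cell types that the tissue could hold were called in both directions. Over the 9 lists, 11 of 45 tested genes were called lower and 17 higher, where 12.6% and 25.2% of all named genes were. The counts of single lists below are to be read beside these shares. All 11 tested thymocyte genes were lower in KO, led by RAG2 with a log2 fold change of -7.76 (SE 0.68), PTCRA with -7.74 (SE 0.52), RAG1 with -7.68 (SE 0.56) and CCR9 with -4.77 (SE 0.26). RAG2 was not well above background in KO replicate 2, so that the size of its fall is not resolved. The summed normalized signal of the brightest probes of the thymocyte genes, on a linear scale where 1 is the 75th percentile of the array, came to 26.3 and 25.4 in KO against 162 and 232 in WT. Bright probes weigh most in such sums. Fibroblast and matrix genes were higher at 4 of 4, with POSTN at 4.54 (SE 0.22), LUM at 2.73 (SE 0.64), DCN at 1.79 (SE 0.50) and COL1A2 at 1.39 (SE 0.34), and sums of 132 and 194 in KO and of 63.7 and 28.1 in WT. Endothelial genes were higher at 4 of 5, with CDH5 at 2.32, VWF at 2.23, PECAM1 at 1.79 and CLDN5 at 1.49, and sums of 19.2 and 21.2 in KO and of 7.15 and 4.65 in WT. Adipocyte genes were higher at 3 of 8, with PLIN1 at 3.99 (SE 1.04), ADIPOQ at 2.98 (SE 0.69) and FABP4 at 2.84 (SE 0.67). PLIN1 was not well above background in WT replicate 2. CIDEC at 3.72 was not called (SE 1.23), and the sums were 80.1 and 192 in KO and 55.7 and 38.9 in WT. In these 3 lists, as at the CKM probes called higher, WT replicate 2 was the lowest array by its sum.

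Smooth muscle and pericyte genes were higher at 4 of 6, with CNN1 at 2.73, MYL9 at 1.96, RGS5 at 1.66 and TPM4 at 1.36, and sums of 50.5 and 47.5 in KO and of 36.8 and 39.4 in WT. With the slide as a block, the CNN1 call was lost (adjusted p = 0.0518 in limma), which leaves 3 of 6. Of the heart muscle genes none of 3 was called, with ACTC1 at -0.65, NPPA at -0.64 and TNNI3 at 0.39, and sums of 24.2 and 21.4 in KO and of 33.8 and 36.6 in WT. The nonmuscle actin and myosin genes ACTN1, at -0.10, and MYL6, at -0.12, were not called, both changed sign under quantile normalization and without scaling, and their sums were 141 and 147 in KO and 160 and 151 in WT. Among thymic epithelial genes KRT8 was higher at 2.37 (SE 0.33), whereas DLL4 at 0.70, CCL25 at 0.48 and EPCAM at 0.37 were not called. The sums were 259 and 241 in KO and 96.5 and 68.1 in WT, and KRT8, the brightest of these genes, weighs most in them. The median log2 fold change of the list was 0.59. FOXN1, PSMB11 and AIRE had no named probe. Of the nerve and Schwann cell genes, 1 of 2 tested was called, NEFL, which was higher at 1.26 (SE 0.26). The part of these cell types in the differences of the muscle genes was not tested.

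The genes with the profile nearest to the mean profile of the muscle genes were sought over the 4 arrays. The profile of the 9 genes, each by its brightest probe and centred on its own mean, averaged -1.08 and -1.11 in KO, 0.77 in WT replicate 1 and 1.42 in WT replicate 2. This average mixes unlike genes, with log2 fold changes from -5.63 at MYL1 to 0.28 at ACTN2. Its gap between the WT replicates comes from MYH1, where WT replicate 2 was 6.09 above WT replicate 1 on the log2 scale. Among 2693 other named genes, the root mean square difference from this average profile was smallest for THBD at 0.026, PAEP at 0.048, KLF13 at 0.086, CD3D at 0.090 and CTCF at 0.118 on the log2 scale. With 4 arrays this is a description of likeness to the average and not to each muscle gene, and none of these 5 genes belongs to the muscle lists. CD3D, a chain of the T cell receptor complex, is in the thymocyte list.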

How the data were processed

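Thymus RNA of 2 KO and 2 WT pigs was hybridised to porcine arrays in 1 colour. Per the file headers the authors used Agilent Feature Extraction 11.0.1.1 and deposited spot intensity values with background subtracted and no normalization between arrays. They also deposited log2 values, which covered 27974 probes and correlated with the log2 scanner signal at r of at least 0.9998. These had the same median on every array (8.49), and so were normalized between arrays. The methods name Cy3 and Cy5 dyes, whereas the labels name Cy3 alone. Spleen arrays were not analysed here.

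Control spots and outlier spots (4 to 8 per array) were left out, spots of a probe were averaged, and log2 signals were reduced by the 75th percentile of each array. limma 3.58.1 in R 4.3.3 (lmFit, eBayes) was run on 31963 probes, with Benjamini-Hochberg adjustment over all of them. Figures used Python 3.11.15 and matplotlib 3.10.9. Accessions were named with RefSeq's gene list for assembly Sscrofa11.1 (6686 probes, 15.3%), without coordinates. The fit was tested on simulated data.

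Named genes were the 9 genes with every probe, up to 4 genes per wider list with the largest change, the 5 genes nearest in profile, and IL2RG. Some genes that this rule names are not reported here. ACTC1, ACTA2, MYH4 and MYF6 probes were added after values were seen. The genes, lists and tests were chosen with earlier results of these data known. The methods name an unpaired t-test with Bonferroni correction and a fold change of 2. It was run as an alternative and is called the methods' t-test. The other alternatives were scaling to the median, quantile normalization, no scaling, normexp (offset 50, on the median spot signal, since the files give no mean), the deposited log2 values, other filters on dim probes, an intensity trend, outlier spots kept, a block for the slide or for the replicate number, every named probe counted, and each array left out. The labels number the replicates of each genotype, and only the study's text describes the KO samples as separate animals, so that p values measure the spread between these samples.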

Additional observations from a re-analysis of the deposited data

How the results depend on the processing

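The 29 probes called lower in KO kept their direction in all alternatives that held them. Of the 29, 26 kept the call in every alternative that held them, other than the methods' t-test. The deposited log2 values and the filter for all 4 arrays held only some of the 29. The count of lower probes was 12 of 45 in the deposited log2 values and 12 of 45 with a filter for all 4 arrays. Both hold fewer of the probes (the deposited values also differ in scaling). By the methods' t-test with Benjamini-Hochberg adjustment the count was 12 of 68. With the Bonferroni correction that test called 0 here and in the counts of genes below, whereas without adjustment it called 29 lower and 1 higher. The 7 probes called higher became 3 under normexp, 0 by the t-test with Benjamini-Hochberg adjustment, and 0 to 9 when 1 array was left out.

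For the 6 wider muscle lists, the 8 lower genes became 1 by the t-test with Benjamini-Hochberg adjustment and 5 to 9 with 1 array left out (5 without KO replicate 2), and the 13 higher genes became 0 by that test and were 9 without adjustment. For the 9 other lists, the 11 lower genes became 1, and the 17 higher genes became 2, 8 by the unadjusted t-test and 6 to 20 with 1 array left out (9 without KO replicate 1, 6 without KO replicate 2). Counting every named probe gave 36 lower and 51 higher of 160 tested in the muscle lists, and 23 lower and 56 higher in the others. Of all tested probes, 13.0% were called lower and 21.0% higher. IL2RG kept its value of -3.41 but was not called by the methods' t-test with either correction. Of the 41 differences between probes at the smallest exact p, 5 were called in limma. These 5 became 8 under quantile normalization, 14 under normexp, 0 with the slide as a block and 0 to 8 with 1 array left out (0 without either KO replicate, 8 without WT replicate 1).

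Values that changed sign were small or rested on 1 array. Scaling to the median gave TNNI2 values of -0.25 and -0.22 and -0.079 at ACTN2 A_72_P496366. Quantile normalization gave -0.013 at TNNI2 A_72_P303159, -0.16 at ACTN2 A_72_P496366, -0.0196 at ACTN2 A_72_P561764, -0.00182 at ACTN2 A_72_P584646, 0.12 at ACTN1 and 0.035 at MYL6. The deposited values gave -0.019 at TNNI2 A_72_P303159, 0.12 at ACTN1 and 0.035 at MYL6, and no scaling gave 0.046 at ACTN1 and 0.029 at MYL6. Normexp gave -0.083 at MYH1 A_72_P442365 and -0.012 and -0.12 at ACTN2 A_72_P496366 and A_72_P601268. With 1 array left out, TNNI2 ranged from -0.14 to 0.16 at A_72_P303159 and from -0.081 to 0.16 at A_72_P585911, ACTN2 A_72_P496366 from -0.079 to 0.44, CKM A_72_P602644 from -0.95 to 0.42, MYH7 from -0.058 to 0.71 and ACTN1 from -0.26 to 0.058. The cause was not tested.

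With the replicate number as a block (the replicate block), 30 probes were lower and 6 higher, with MYH1 A_72_P590054 gained and CKM A_72_P581502, COL1A2 and DCN lost. The deviations of KO 1 and WT 1 from their group means correlated at -0.29 over 31963 probes. With 2 arrays a genotype the crossed pairing must give the opposite sign, 0.29. This value therefore cannot show whether the numbers pair the samples. The crossed pairing, added after seeing the data, is the slide block, with 30 lower and 7 higher, CIDEC gained and CNN1 lost. Scaling moved the split of all calls, with 61.7% of calls higher as reported, 47.8% with median scaling and 70.1% without scaling, and the median of all probes was -0.06, -0.32 and 0.09 in these. The number of arrays and signals near background limit all of these values.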

Other observations

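The WT arrays also differed in the other direction. Of 31963 tested probes, 64 (0.2%) were at least 8-fold higher in WT replicate 1 than in WT replicate 2, of which 25 could be named and belonged to 19 genes, none of them a muscle gene of the 9. They included genes of neutrophil granules and of the inflammatory calcium-binding S100 family. NPG4, a protegrin, read 8.11 in WT replicate 1 and 3.91 in WT replicate 2 at probe A_72_P035871, with 1.60 and 4.42 in KO. S100A8 read 5.12 and 1.14 in WT, with -1.43 and 0.97 in KO, and LTF, lactoferrin, read 4.42 and 0.17 in WT at A_72_P088736, with -0.95 and 1.05 in KO. These genes were picked after their values were seen.

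TPM1, a tropomyosin of the thin filament, had probes called in both directions, with 9 of 21 tested probes lower in KO, 4 higher and its brightest probe at 0.14 (SE 0.15), not called. The probes of DES, the muscle intermediate filament, were called higher at 3 of 4, while its brightest was at 0.33 and was not called. TPM1 and DES were likewise singled out after their values were seen.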
